A study of Homo sapiens with 6 samples.

Results

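Aminoacyl-tRNA synthetases are the enzymes that join each amino acid to its transfer RNA. The 36 synthetase genes described here were taken by gene symbol alone from the 51103 genes of the count tables. The rule uses no measured value, although the set was chosen with earlier results of these data known. Of these, 20 encode enzymes named for the cytosol and 16, whose names end in 2, encode enzymes of the mitochondrion. KARS (lysine) and GARS (glycine) are counted with the cytosolic genes although each supplies both compartments from the same gene. All 36 passed the filter on low counts.

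Polyadenylated RNA was sequenced from HGC-27 and AGS, 2 established human gastric cancer lines, the first from an undifferentiated carcinoma and the second from an adenocarcinoma. All groups had received a lentivirus, either the negative control or the NINJ1 overexpression vector, and cells were lysed after 48 hours. NINJ1 (ninjurin-1) was described as an adhesion molecule of the cell surface and takes part in the rupture of the plasma membrane in lytic cell death. The 6 libraries were an HGC-27 negative control, an AGS negative control, 2 HGC-27 NINJ1 libraries and 2 AGS NINJ1 libraries. The promoter of the vector, and whether the transduced cells were clones or pools, are not given in the sources used here. Nor do the labels call the replicates separate cultures, so the p-values measure the spread between these libraries, which may be technical.

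Cytosolic and mitochondrial protein synthesis use separate sets of transfer RNAs, and most amino acids therefore have a synthetase gene for each compartment. In the cytosol, 8 of the enzymes are held with 3 scaffold proteins (AIMP1, AIMP2 and EEF1E1) in the multi-synthetase complex, while the others act outside it. When charged transfer RNA runs short, or the endoplasmic reticulum or the mitochondrion is stressed, kinases that phosphorylate the initiation factor eIF2 raise the translation of the transcription factor ATF4. ATF4 binds, with C/EBP partners, a composite DNA element upstream of genes for amino acid synthesis, amino acid transport and many cytosolic synthetases.

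The promoters were searched for the letters of that composite element, because many cytosolic synthetase genes are known as ATF4 targets. RefSeq promoters (build GRCh38.p14, from 250 bases before to 50 after a start site) were matched by symbol for 30 of the 36 genes. No entry was found for DARS, LARS, VARS, YARS, AARS2 and VARS2. The motif TGATGNAA, read on both strands, was present in 7 of 16 cytosolic genes and in 1 of 14 mitochondrial genes. Some genes have more than 1 promoter entry. Counted by promoter, it was present in 7 of 21 cytosolic and 1 of 18 mitochondrial ones, and in 3.62% of all 35116 promoters of 300 bases. Its narrower form TGATGCAA, every match of which is also a match of the first motif, was present in 6 of the 16 cytosolic and 0 of the 14 mitochondrial genes. By promoter it was present in 6 of 21 cytosolic and 0 of 18 mitochondrial ones, and in 0.87% of all promoters. The matched stretches follow on the strand of the gene, 5′ to 3′, with the matched bases in capitals. They are shown because these 8 genes carry all the matches among the synthetases.

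AARS: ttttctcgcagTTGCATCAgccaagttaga
CARS: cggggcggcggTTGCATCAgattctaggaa
GARS: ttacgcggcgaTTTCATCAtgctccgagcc
IARS: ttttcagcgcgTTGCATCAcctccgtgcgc
MARS: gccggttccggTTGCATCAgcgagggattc
NARS: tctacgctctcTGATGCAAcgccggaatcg
TARS: gcgcctttcgaTTGCATCAgctggtccagc
YARS2: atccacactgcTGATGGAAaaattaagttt

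The matches in AARS, CARS, GARS, IARS, MARS and TARS were on the strand opposite to the gene, and those in NARS and YARS2 on the strand of the gene. In CARS, GARS, IARS, MARS, NARS and TARS the match lay close to the RefSeq start or across it, where negative positions are before the start. It covered bases -2 to 6 in CARS, -33 to -26 in GARS, -13 to -6 in IARS, -4 to 4 in MARS and 3 to 10 in TARS. In NARS it covered bases 15 to 22. It lay further out at -187 to -180 in AARS and -197 to -190 in YARS2. The stretches span chr16:70289675-70289704 (AARS, minus strand), chr11:3057407-3057436 (CARS, minus), chr7:30594834-30594863 (GARS, plus) and chr9:92293692-92293721 (IARS, minus). The others span chr12:57488053-57488082 (MARS, plus), chr18:57621804-57621833 (NARS, minus), chr5:33440956-33440985 (TARS, plus) and chr12:32756076-32756105 (YARS2, minus). A match describes the letters of the window and does not show that a factor binds there.

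Before any comparison the libraries were checked against their labels. NINJ1 itself stood at 4.89 scaled CPM (counts relative to library size, adjusted between libraries by the TMM method) in the HGC-27 control and at 17.3 and 19.1 in the HGC-27 NINJ1 libraries (log2 1.89 by edgeR, adjusted p = 3.22e-08). After the correction for GC content described with the HGC-27 results, this difference was 0.60 (adjusted p = 0.0293). In AGS it stood at 28.4 in the control and at 19.5 and 15.9 with the NINJ1 label, so NINJ1 RNA was lower there by edgeR (log2 -0.68 ± 0.19 SE, adjusted p = 0.0148) and AGS directions below are those of the labels. For the 2 NINJ1 libraries numbered 2, the GEO title gives 1 line and the file name the other, and the line of the file name is used here. Of 15 genes seen only in the undisputed HGC-27 libraries, 15 were detected in the replicate 2 library named HGC-27 and 0 in the one named AGS, and of 13 such AGS genes 0 and 13. Total counts ran from 12619684 to 18175697. The HGC-27 control stood apart from the other 5 libraries in base composition: genes of over 60% GC took 2.31% of its counts and from 9.25% to 11.35% in the others. Of 10 epithelial markers (VIM, a filament gene of mesenchymal cells, was listed among them), 6 had at least 1 FPKM (fragments relative to gene length and library size) in every library, and the list summed to 255 to 401 FPKM. KRT8 and KRT18, epithelial keratins, stood at 48.6 FPKM or more and EPCAM at 2.57 to 7.93, while CDH1 (E-cadherin) was at 0 to 0.454. The leukocyte markers summed to at most 1.62 FPKM with CD3E, MS4A1 and LYZ at 0, the fibroblast markers to at most 10.9 with PDGFRA at 0, and the endothelial markers to at most 0.757 with KDR at 0. Several markers moved with the contrasts. In AGS the fibroblast sum was 10.9 FPKM in the control and 3.82 and 3.28 with the NINJ1 label, the 3 tested of 7 such markers (COL1A1, PDGFRB and DCN) were called lower, and so were the epithelial ELF3, CLDN7 and KRT8. In HGC-27 that sum was 1.10 in the control and 5.42 and 5.82 in the NINJ1 libraries, mostly from COL1A1 (0.812, 5.36 and 5.71). COL1A1 was called higher (log2 2.37) but did not pass with the GC correction (0.37, edgeR adjusted p = 0.0652). DCN was called lower in both settings and PDGFRB in neither. Of 9 tested epithelial markers 4 were higher and 5 lower (2 and 6 with the GC correction). The part of these shifts in the synthetase results was not tested.

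Cytosolic synthetase RNA was several times as abundant as mitochondrial synthetase RNA in every library. On the FPKM scale, which divides by gene length, the 20 cytosolic genes summed to between 990 (AGS control) and 1326 (HGC-27 control), and the 16 mitochondrial genes to between 178 and 202. The ratio of the sums was 6.90 in the HGC-27 control, 6.19 and 6.51 in the HGC-27 NINJ1 libraries, 5.43 in AGS control cells, and 5.54 and 5.94 in the libraries labelled AGS NINJ1. The HGC-27 libraries thus had the 3 highest ratios of sums and the AGS libraries the 3 lowest, but a few genes carry these sums. The ratio of the median genes gave another order: it was 5.38, 4.39 and 4.75 in the HGC-27 libraries and 6.77, 4.72 and 5.01 in those of AGS, controls first, with the AGS control highest. In bulk RNA, fewer cells of a kind and less RNA per cell cannot be told apart.

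TARS (threonine) and EPRS, a bifunctional enzyme for glutamate and proline, were among the 3 most abundant cytosolic transcripts in all 6 libraries. TARS stood at 256 FPKM in the HGC-27 control, 171 and 170 in the HGC-27 NINJ1 libraries, 98.8 in AGS control cells, and 113 and 117 in the libraries labelled AGS NINJ1. EPRS stood at 228, 140, 129, 112, 140 and 149 in the same order. TARS was the highest cytosolic gene in all 3 HGC-27 libraries, while in AGS the first place went to GARS in the control (112) and to EPRS in the other libraries. The lowest cytosolic gene was HARS (histidine) in 5 libraries, at 5.57 to 9.12 FPKM, and CARS (cysteine) in the HGC-27 control, at 6.58. The 3 most abundant genes made up 49.0% of the cytosolic sum in the HGC-27 control and 32.6% to 37.2% in the other libraries.

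The mitochondrial set was dominated by IARS2 (isoleucine), which alone made up 30.1% to 47.7% of the mitochondrial sum. IARS2 stood at 85.7 FPKM in the HGC-27 control, 66.3 and 53.5 in the HGC-27 NINJ1 libraries, 87.0 in AGS control cells, and 89.7 and 83.7 in the libraries labelled AGS NINJ1. Second place went to RARS2 (arginine), YARS2 (tyrosine) or NARS2 (asparagine), depending on the library, at 11.8 to 23.0 FPKM. SARS2 (serine) was close to absent, with 3 to 20 counts per library and 0.0511 to 0.427 FPKM, while the other 35 genes had between 64 and 26593 counts. Of the SARS2 exon bases, 57.0% are shared with 2 other genes, mostly with AC011455.2, and of those of VARS2, 22.0% are shared with GTF2H4 on the same strand. HARS2 shares 15.8% of its exon bases, mostly with HARS on the other strand, and the strand setting of the counting is not given in the sources used here, so these 3 levels are uncertain.

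**Figure D1:**
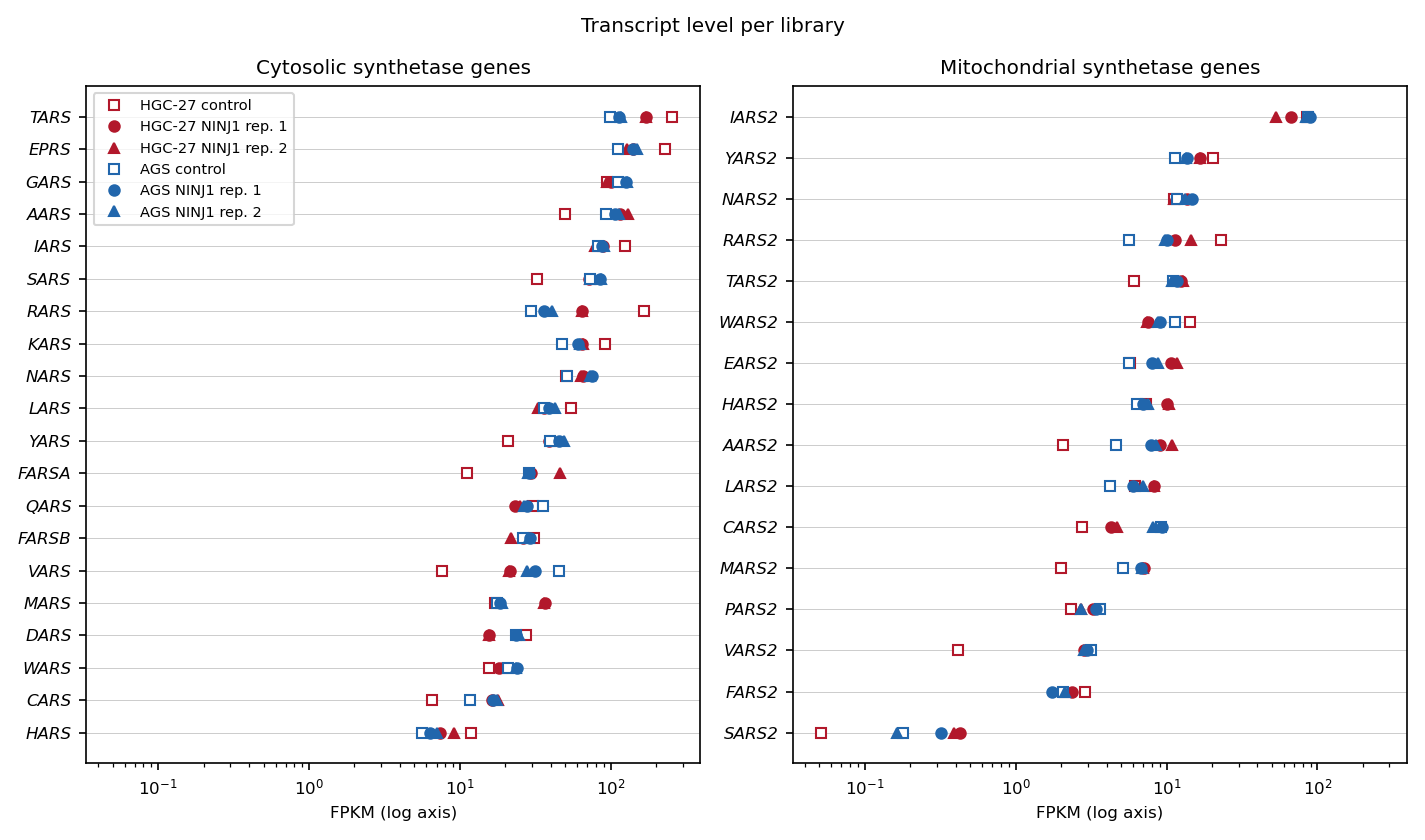
Level of each synthetase gene in each of the 6 libraries, in FPKM on a log axis, cytosolic genes at left and mitochondrial genes at right, each panel ordered by mean level. Each symbol is 1 library: squares are controls, filled circles and triangles NINJ1-labelled libraries, red HGC-27 and blue AGS; the open red squares of the HGC-27 control lie at an end of many rows, such as RARS at 167 FPKM and VARS2 at 0.417.

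The set holds 13 pairs of a cytosolic and a mitochondrial gene of the same name, and in 11 of the 13 pairs the cytosolic gene had the higher FPKM in all 6 libraries. The distance varied from pair to pair. AARS over AARS2 (alanine) ran from 12.0 to 24.1, VARS over VARS2 (valine) from 7.26 to 18.4, and LARS over LARS2 (leucine) from 4.00 to 8.77. NARS over NARS2 was the most even of the pairs at 4.36 to 5.68. The exceptions were histidine, where HARS exceeded HARS2 only in the HGC-27 control (1.63, against 0.728 to 0.934 elsewhere), and isoleucine, where IARS exceeded IARS2 in 4 of 6 libraries (0.945 to 1.46). TARS over TARS2 stood at 42.0 in the HGC-27 control and at 8.90 to 13.7 in the other libraries, and YARS over YARS2 at 1.02 and at 2.36 to 3.64.

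**Figure D2:**
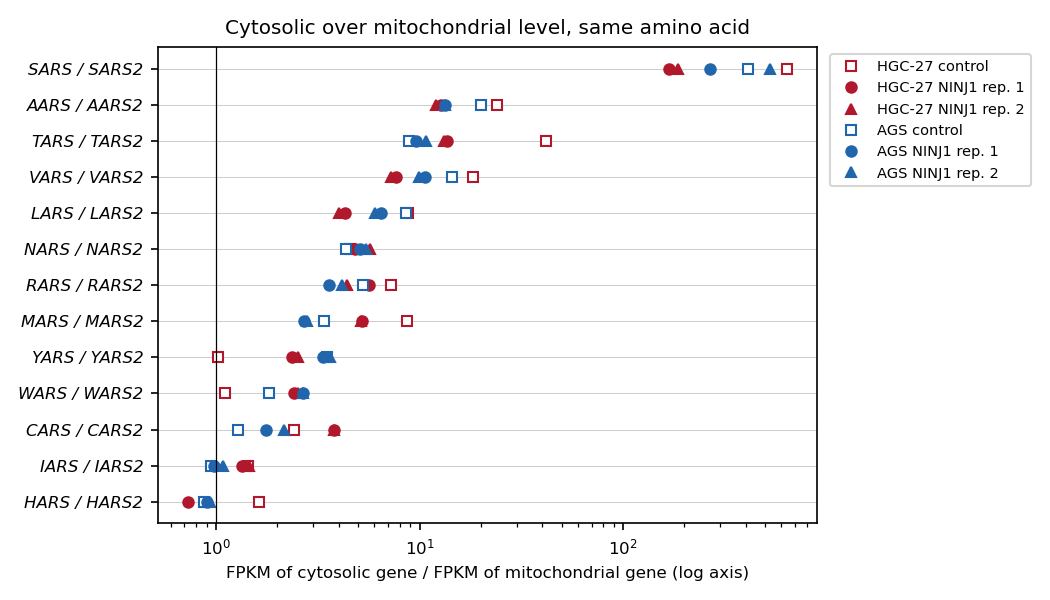
Ratio of the cytosolic to the mitochondrial gene for the same amino acid, in FPKM, on a log axis with 1 marked by the vertical line. Each symbol is 1 library; 11 of 13 pairs lie to the right of 1 in all 6 libraries, and the HGC-27 control (open red square) is at an end of most rows.

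In AGS, few synthetase genes differed between the libraries labelled NINJ1 and the control, and those that did were split between compartments. At an adjusted p under 0.05 (quasi-likelihood test of edgeR, Benjamini-Hochberg adjusted over all 17617 tested genes), 8 of 36 synthetase genes were called, or 22.2%, against 15.0% of all tested genes. Higher calls numbered 6 and lower calls 2, against 5.73% and 9.30% of all genes. Among the cytosolic genes CARS and NARS were higher and VARS and QARS lower. Among the mitochondrial genes AARS2, RARS2, LARS2 and EARS2 were higher and none was lower. The median log2 change was 0.15 for the cytosolic and 0.17 for the mitochondrial genes, and 0.00 for all tested genes.

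CARS, which charges cysteine, stood at 116 scaled CPM in AGS control cells, and at 156 and 168 with the NINJ1 label (1.4-fold, log2 0.49 ± 0.13 SE, adjusted p = 0.0119). NARS, for asparagine, stood at 206 in the control and at 289 and 285 (log2 0.48 ± 0.13 SE, adjusted p = 0.00951). For both genes the libraries labelled NINJ1 were above the control and close to each other. VARS, for valine, went the other way, from 271 in the control to 179 and 163 (1.59-fold lower, log2 -0.67 ± 0.13 SE, adjusted p = 0.000265), the smallest p of the 36 genes in this comparison. QARS, for glutamine and a member of the multi-synthetase complex, stood at 165 in the control and at 124 and 120 (log2 -0.43 ± 0.13 SE, adjusted p = 0.0191).

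The mitochondrial genes with calls were of low to moderate abundance. AARS2, for alanine, rose from 19.7 scaled CPM in the control to 32.1 and 35.1 (1.7-fold, log2 0.77 ± 0.19 SE, adjusted p = 0.0038). RARS2, for arginine, rose from 14.1 to 24.0 and 23.8 (log2 0.77 ± 0.19 SE, adjusted p = 0.00566). LARS2, for leucine, rose from 28.2 to 38.6 and 45.6 (log2 0.58, adjusted p = 0.0156). EARS2 charges glutamate, and in mitochondria also the glutamine transfer RNA before its amidation, and rose from 31.6 to 43.0 and 47.7 (log2 0.52, adjusted p = 0.0264). In each of the 4 genes both libraries labelled NINJ1 lay above the control. The largest change without a call was that of WARS2 (tryptophan), at 43.1 in the control and 32.6 and 32.2 (log2 -0.41, adjusted p = 0.0767).

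The remaining 28 genes did not pass, among them 7 of the 8 enzymes of the multi-synthetase complex (median log2 0.09). Class I synthetases, the family with a Rossmann-fold catalytic domain, had 4 higher and 2 lower calls of 19, and class II synthetases 2 higher and 0 lower of 17. All 8 calls were kept after a correction for GC content, under which KARS (log2 0.28) also passed as higher and WARS2 (log2 -0.50) as lower, 7 and 3 in all. Of all tested genes 18.6% were then called, 7.78% higher and 10.8% lower. DESeq2 kept 6 of the 8 calls, without LARS2 and EARS2, and called 1317 of all genes it tested. With either AGS NINJ1 replicate left out (replicate 2 is the library titled HGC-27), fewer of the 8 calls were kept. Only the HGC-27 NINJ1 pair then gives a spread, and it differed more than the AGS pair (chi-square per degree of freedom 13.8 and 4.57). Such a loss therefore does not show whether a call rests on the library left out. With lines as titled edgeR called 0 of the 36 and 0% of all genes, with 2 of the 36 at an unadjusted p under 0.05, and limma on log2(FPKM + 1) called 0 of 35, with 13 at such a p and 2.67% of all genes called.

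**Figure D3:**
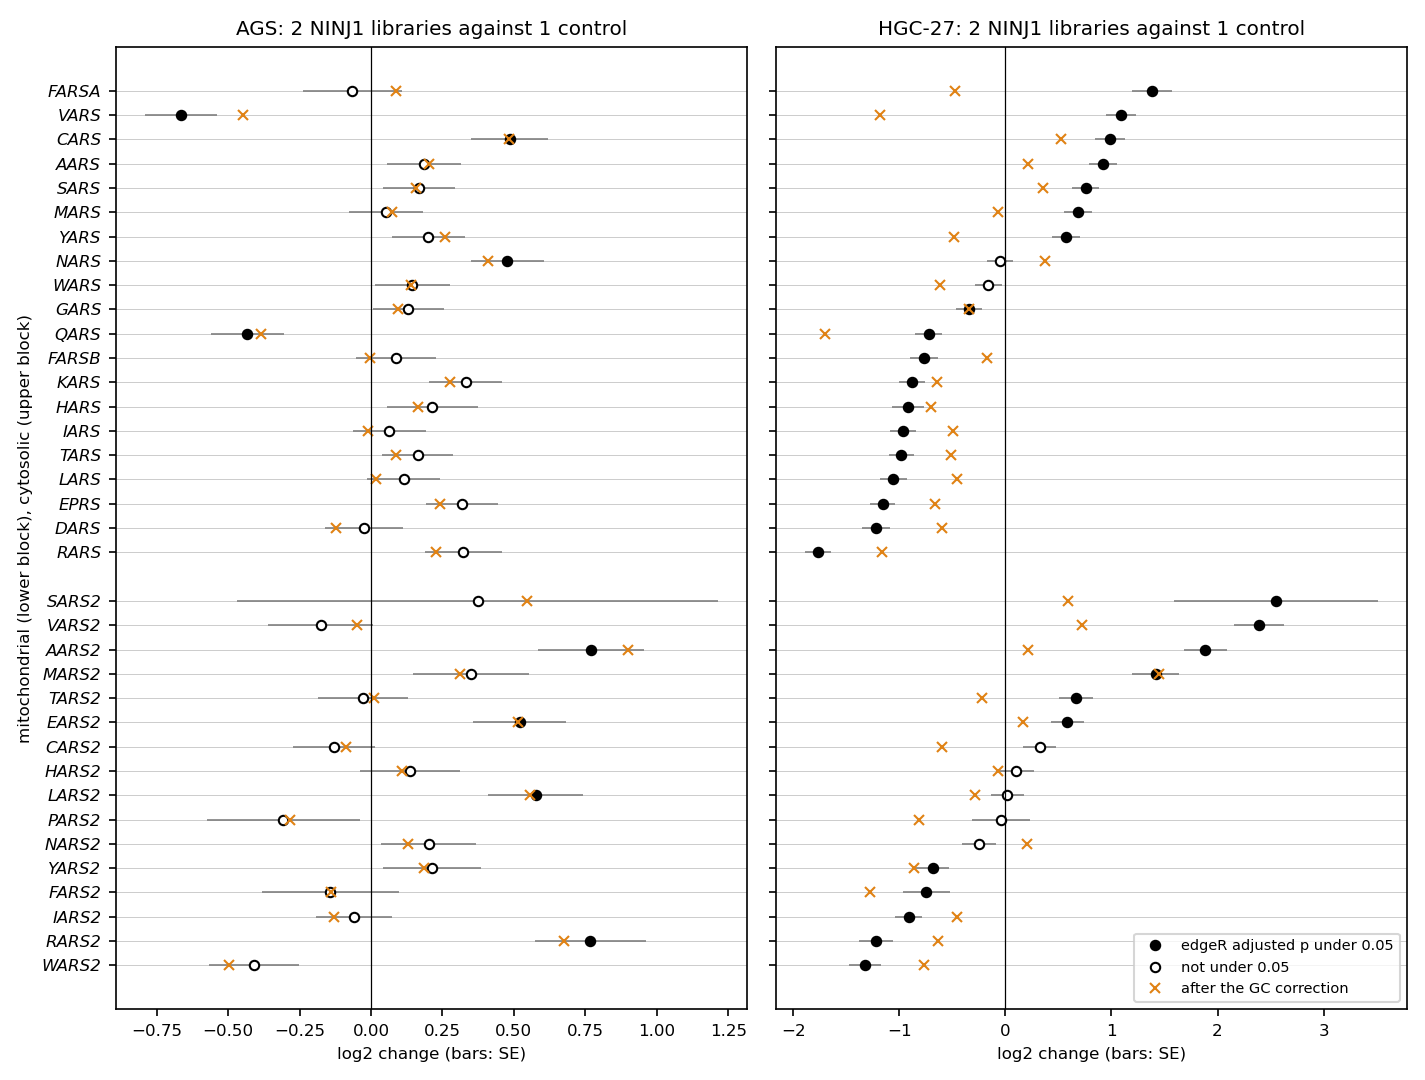
Log2 change of each synthetase gene, libraries labelled NINJ1 against the control, in AGS (left) and HGC-27 (right); the horizontal scales differ. Circles are edgeR estimates with standard error bars, filled where the adjusted p was under 0.05, and orange crosses are the estimates after the GC correction; 8 circles are filled in AGS and 29 in HGC-27, where crosses and circles lie far apart for many genes.

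In HGC-27, most synthetase genes differed between the NINJ1 libraries and the control, in both directions. Calls numbered 29 of 36 (80.6%), against 63.0% of all tested genes, with 13 higher and 16 lower, where 34.0% of all genes were higher and 29.1% lower. The cytosolic genes were called lower more often than higher: 11 fell (DARS, EPRS, FARSB, GARS, HARS, IARS, KARS, LARS, QARS, RARS and TARS) and 7 rose (AARS, CARS, FARSA, MARS, SARS, VARS and YARS), with a median log2 change of -0.53. Of the mitochondrial genes 6 rose (AARS2, EARS2, MARS2, SARS2, TARS2 and VARS2) and 5 fell (FARS2, IARS2, RARS2, WARS2 and YARS2), with a median of 0.06. After the GC correction described next, the cytosolic genes were 3 higher and 14 lower (median -0.49) and the mitochondrial genes 2 higher and 7 lower (median -0.25). The median of all tested genes was 0.12, and 0.00 after the correction.

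The direction of these changes went with the GC content of the genes, and the HGC-27 control is the library with few counts from GC-rich genes. Across the 36 genes, all measured against that same control, the rank correlation of log2 change with GC content was 0.833 (Spearman, a description over genes that share libraries). Genes called higher had a median GC content of 54.6% and genes called lower 43.6%. In the control the 7 synthetase genes of over 55% GC had a median log2 CPM of -0.92 relative to their mean over the 6 libraries, and the 12 under 45% GC one of 0.77, where all tested genes of those classes were at -0.99 and 0.43. A correction that removes from each library the smooth trend of log2 CPM on GC content (planned as an alternative) lowered that correlation to 0.162. Because the trend is fitted to GC content in these same libraries, a fall was built in and tests nothing. The correction left 26 of 36 synthetase genes called, 5 higher and 21 lower, against 49.1% of all tested genes, 23.1% higher and 26.0% lower. The share of the GC profile in the HGC-27 changes was not tested further, and GC-corrected values stand beside the uncorrected ones in what follows.

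**Figure D4:**
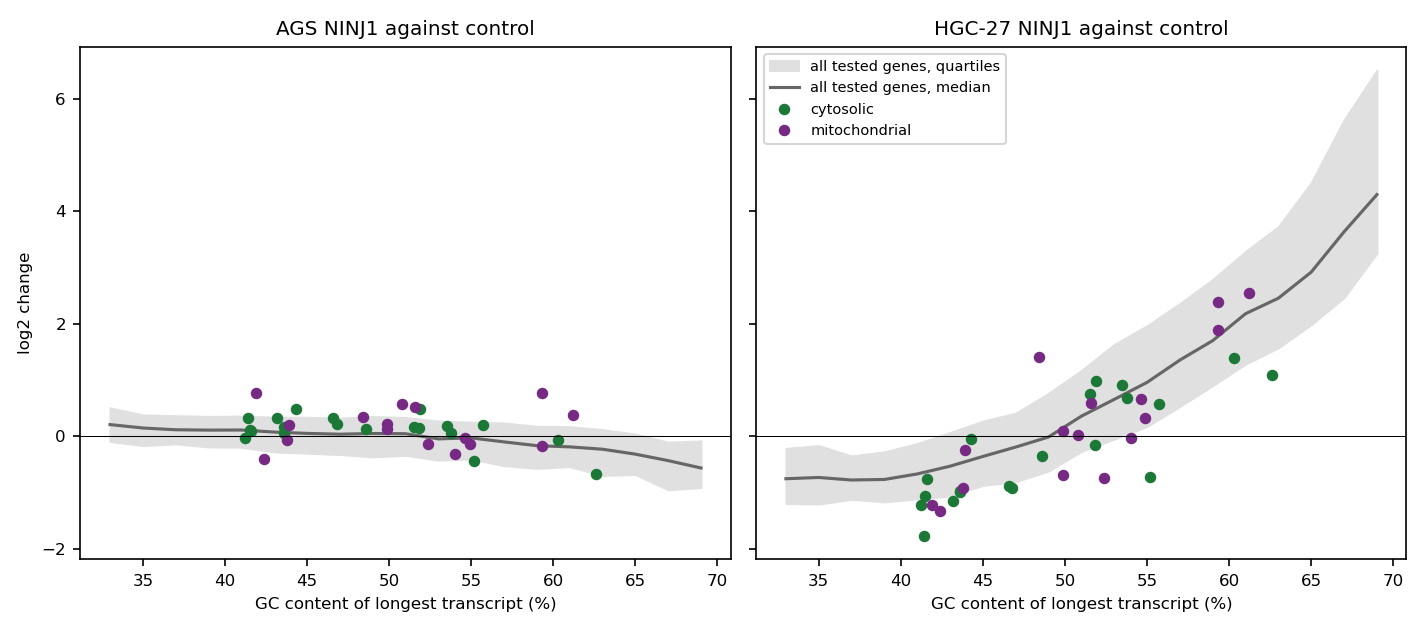
Log2 change of the synthetase genes (points, green cytosolic and purple mitochondrial) against the GC content of the longest transcript in percent, in AGS (left) and HGC-27 (right). The line is the median of all tested genes in GC classes and the band their quartiles. In HGC-27 the synthetase genes rise with GC content (Spearman 0.833 over 36 genes), as the line of all genes does. In AGS they do not rise with GC (-0.208).

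Enzymes of the multi-synthetase complex fell in HGC-27 with and without the correction: 7 of 8 were lower, with a median log2 change of -1.01, and the same 7 were lower after the GC correction, with a median of -0.62. Of all tested genes 29.1% were lower without and 26.0% with the correction. Lower calls were not confined to the complex: of the 20 cytosolic genes, these 7 among them, 11 were lower without and 14 with it. RARS, the arginine enzyme, changed most of the 8 before the correction, and QARS after it. RARS stood at 713 scaled CPM in the control and at 209 and 210 in the NINJ1 libraries (3.41-fold lower, log2 -1.77 ± 0.12 SE, adjusted p = 3.57e-14), and at log2 -1.16 after the correction (adjusted p = 4e-10). The AGS libraries, at 99.9, 117 and 133, were below all 3 HGC-27 libraries. EPRS, for glutamate and proline, fell from 1554.2 to 721 and 673 (log2 -1.16 ± 0.12 SE, adjusted p = 3.87e-10), and to log2 -0.66 when corrected. LARS, for leucine, fell from 553 to 276 and 256 (log2 -1.05 ± 0.12 SE, adjusted p = 4.55e-09; corrected -0.45).

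DARS, for aspartate, fell from 138 to 59.5 in both NINJ1 libraries (log2 -1.22 ± 0.13 SE, adjusted p = 8.46e-10; corrected -0.60). IARS, for isoleucine, fell from 1146.5 to 623 and 552 (log2 -0.96 ± 0.12 SE, adjusted p = 2.47e-08; corrected -0.49). KARS, for lysine, fell by 0.88 on the log2 scale (corrected -0.64). For these genes the control was the highest of all 6 libraries, and the NINJ1 libraries lay close together. QARS was the member whose value grew under the correction, from log2 -0.72 to -1.70. It has 55.2% GC, more than any other gene called lower, and stood at 179 in the control and at 103 and 113 in the NINJ1 libraries. MARS, for methionine, was the exception among the 8. It rose from 151 to 244 and 242 (log2 0.69 ± 0.13 SE, adjusted p = 2.85e-05), and stood at -0.072 (adjusted p = 0.564) after the correction.

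Among cytosolic enzymes outside the complex, TARS (threonine) fell from 1832.7 scaled CPM to 926 and 929 (log2 -0.98 ± 0.12 SE, adjusted p = 1.01e-08; corrected -0.51). HARS and GARS also fell with and without the correction, HARS by 0.92 and GARS by 0.34 on the log2 scale (corrected -0.70 and -0.34), although GARS was at 0.052 with limma on log2(FPKM + 1). The subunits of the phenylalanine enzyme moved apart: FARSB, at 41.6% GC, fell by 0.77, and FARSA, at 60.3% GC, rose by 1.38. After the correction FARSA was lower (-0.48, adjusted p = 0.01) and FARSB did not pass (-0.17, adjusted p = 0.174). FARSA stood at 33.8 in the control and at 68.3 and 108 in the NINJ1 libraries, the widest ratio between the HGC-27 replicates among the 36 genes.

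VARS, the most GC-rich gene of the 36 at 62.6%, changed direction with the correction. It stood at 58.4 scaled CPM in the control and at 125 and 124 in the NINJ1 libraries (log2 1.09 ± 0.14 SE, adjusted p = 3.05e-08), and at log2 -1.18 after the correction (adjusted p = 2.3e-09). YARS (tyrosine) likewise went from 0.57 to -0.49, with a call in each direction. CARS and SARS (serine) were higher both ways. CARS stood at 82.8 in the control and at 155 and 173 (log2 0.99 ± 0.14 SE, adjusted p = 1.67e-07; corrected 0.52), and SARS at 156 in the control and at 261 and 267 (log2 0.76; corrected 0.35, adjusted p = 0.00368). AARS, at 278 in the control and 490 and 564 in the NINJ1 libraries, passed without the correction (log2 0.92) and not with it (0.21, adjusted p = 0.0713). NARS did the opposite, at log2 -0.05 without the correction and 0.38 with it (adjusted p = 0.0019), and WARS (tryptophan) passed as lower only with it (-0.61).

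The mitochondrial genes showed the same mixture. VARS2 (valine) stood at 4.41 scaled CPM in the HGC-27 control and at 22.6 and 23.7 in the NINJ1 libraries (5.24-fold, log2 2.39 ± 0.23 SE, adjusted p = 1.01e-10), and at log2 0.72 after the correction (adjusted p = 0.00716). MARS2, for methionine, was little changed by the correction. It rose from 7.51 to 20.1 and 20.0 (log2 1.42; corrected 1.45, adjusted p = 1.16e-06). AARS2 rose from 11 to 36.5 and 45 (log2 1.89 ± 0.20 SE, adjusted p = 5.71e-10) but stood at 0.21 after the correction (adjusted p = 0.307).

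WARS2 fell from 68.4 to 27.3 and 27.5 (log2 -1.32 ± 0.15 SE, adjusted p = 3.31e-09; corrected -0.77), and RARS2 from 73.3 to 27.5 and 35.5 (log2 -1.22; corrected -0.63). For RARS2 the HGC-27 control was the highest and the AGS control, at 14.1, the lowest of the 6 libraries. IARS2, FARS2 (phenylalanine) and YARS2 were also lower with and without the correction, at corrected log2 values of -0.46, -1.28 and -0.86. SARS2 was called higher on 3 counts in the control and 20 and 19 in the NINJ1 libraries and did not pass with the correction (adjusted p = 0.665).

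Over both settings, 4 genes were called higher in HGC-27 (CARS, SARS, MARS2 and VARS2) and 15 lower, 10 cytosolic and 5 mitochondrial. Of all tested genes 34.0% were called higher and 29.1% lower without the correction, and 23.1% and 26.0% with it. The share of all genes called the same way in both settings was not counted. The HGC-27 control was the highest of the 6 libraries for 10 cytosolic and 6 mitochondrial genes and the lowest for 6 and 6. How often that control was highest or lowest over all tested genes was not counted. With lines as titled 2 of the 29 calls, EPRS and VARS2, were kept, and 12.2% of all genes were called. Because each line has only 1 control, a difference from it includes anything else that set that library apart.

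Genes with a match to the composite element had calls in both directions in HGC-27 and 2 calls, both higher, in AGS. In AGS, of the 7 cytosolic genes with a TGATGNAA match shown above, CARS and NARS were higher and 5 did not pass, with a median log2 change of 0.16, and of the 9 cytosolic genes with an entry and no match 1 was lower and 8 did not pass, with a median of 0.17. In HGC-27, of the 7 with a match AARS, CARS and MARS were higher, GARS, IARS and TARS lower, with a median of -0.05; 2 of the 9 without a match were higher and 6 lower, with a median of -0.77. After the GC correction CARS and NARS were higher and GARS, IARS and TARS lower among the 7 (median -0.07), and 1 was higher and 7 lower among the 9 (median -0.64). In AGS the correction left CARS and NARS higher among the 7 (median 0.09), and 1 was higher and 1 lower among the 9 (median 0.16). Of all tested genes 5.73% were higher and 9.30% lower in AGS (7.78% and 10.8% with the correction). In HGC-27 these shares were 34.0% and 29.1% (23.1% and 26.0% with it). The difference between genes with and without a match was not tested.

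Partners of the synthetases and the ATF4 programme were read from lists chosen by function, beside which 15.0% of all genes were called in AGS and 63.0% in HGC-27 (49.1% after the GC correction). Of 10 scaffold and tRNA-processing genes, 2 passed in AGS by edgeR: the scaffold genes AIMP1 (log2 0.49, adjusted p = 0.0288) and AIMP2 (log2 0.66, adjusted p = 0.014), both higher. DESeq2 called 0 of the 10 in AGS. In HGC-27, 2 of these 10 were higher and 6 lower (median log2 -0.45), and after the GC correction 2 were higher and 1 lower (median 0.17). AIMP2 was higher (0.89, corrected 0.48), while DTD1, a D-aminoacyl-tRNA deacylase, was lower (-1.11, corrected -0.81), and TRNT1, which adds the CCA end of transfer RNA, was at -0.68 (corrected 0.032, adjusted p = 0.876). Of 15 partners in mitochondrial translation only MTRF1L, a release factor, passed in AGS (log2 0.71, not called by DESeq2), and 3 were higher and 7 lower in HGC-27 (4 and 5 after the correction). There GTPBP3, a tRNA-modifying GTPase, was at 2.77 (corrected 0.92) and MTIF2, an initiation factor, at -1.37 (corrected -0.78). All 5 tested cytosolic elongation factor genes passed in HGC-27, 3 higher and 2 lower, and after the correction 2 higher and 3 lower.

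Of 26 genes made up of ATF4 and its targets other than synthetases, 5 were higher and 5 lower in AGS, with a median log2 change of 0.15, beside 0.15 for the cytosolic synthetases. After the GC correction 7 were higher and 5 lower there, with a median of 0.21, beside 0.12 for the cytosolic synthetases and calls in 18.6% of all genes. Without the correction, the smallest p-values in AGS were those of DDIT4 (-1.27), STC2 (0.68) and CEBPB (-0.67). In HGC-27, 22 of the 26 were higher and 1 lower, with a median of 1.69, and after the GC correction 19 were higher and 3 lower, with a median of 0.64. The cytosolic synthetases had medians of -0.53 and -0.49 in the same 2 settings. SLC7A5, an amino acid transporter subunit, was at 2.19 (corrected 0.20, adjusted p = 0.104), GDF15, a stress-induced secreted factor, at 4.17 (corrected 1.83) and STC2, a secreted glycoprotein, at 2.36 (corrected 1.93). ATF4 itself, named after its values were seen, was at 1.08 in HGC-27 (corrected -0.14, edgeR adjusted p = 0.298). In AGS, ATF4 was called higher by edgeR, at 0.43 (adjusted p = 0.035) and at 0.50 after the correction (adjusted p = 0.00165), but not by DESeq2. Of 14 genes for eIF2 kinases and other regulators of the integrated stress response, 1 was higher in AGS (GCN1, an activator of the amino-acid-sensing eIF2 kinase, log2 0.42) and 3 were higher and 7 lower in HGC-27 (3 and 6 after the correction), where PPP1R15A, an eIF2 phosphatase subunit, was at 3.16 (corrected 1.56).

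The NINJ1-labelled contrast of AGS differed from that of HGC-27 for 26 of 36 synthetase genes (72.2%; the interaction in edgeR), against 54.2% of all tested genes. A positive difference, AGS minus HGC-27, was called for 16 genes and a negative one for 10, where 23.9% of all genes were positive and 30.2% negative. After the GC correction 22 genes were called, 20 positive and 2 negative (MARS2 and VARS2), against 35.1% of all genes (18.1% positive and 17.0% negative). The cytosolic genes split 11 to 6 before the correction and 14 to 0 after it, and the mitochondrial genes 5 to 4 and 6 to 2. RARS had the largest positive difference (2.09 ± 0.19 SE, corrected 1.39), and EPRS, KARS, LARS, DARS and IARS of the same complex were positive in both settings. With lines as titled edgeR called 0 of 36, with 9 at an unadjusted p under 0.05, and 0% of all genes; the comparison shares its HGC-27 values, control included, with the preceding one.

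Between the lines themselves, the 4 NINJ1-labelled libraries allowed a comparison that does not use the HGC-27 control. AGS and HGC-27 differed in 14 of 36 synthetase genes (38.9%), close to the 40.2% of all tested genes, with 6 higher and 8 lower in AGS, where 20.2% of all genes were higher and 20.0% lower. Among the enzymes of the multi-synthetase complex DARS was higher in AGS and MARS and RARS lower. All 14 calls were kept after the GC correction, which called 19 of 36, 9 higher and 10 lower, and 43.8% of all genes, 21.6% higher and 22.2% lower. The median log2 difference was 0.14 for the cytosolic and -0.19 for the mitochondrial genes, and -0.01 for all genes.

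MARS showed the smallest p, at 122 and 128 scaled CPM in AGS and 244 and 242 in HGC-27 (1.94-fold lower in AGS, log2 -0.95 ± 0.10 SE, adjusted p = 4.2e-09). CARS2, the mitochondrial cysteine enzyme, had nearly the same size in the other direction, at 92.2 and 80.8 in AGS and 42.5 and 47.2 in HGC-27 (1.93-fold higher, log2 0.95 ± 0.12 SE, adjusted p = 9.54e-08). For both genes the libraries of the lines did not overlap, and the controls lay on the same side, at 121 and 151 for MARS and 94.6 and 35.8 for CARS2 in AGS and HGC-27. RARS was lower in AGS (117 and 133 against 209 and 210, log2 -0.74 ± 0.11 SE, adjusted p = 7.56e-07), as was TARS (607 and 640 against 926 and 929, log2 -0.57 ± 0.10 SE, adjusted p = 1.98e-05).

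DARS was higher in AGS (89.7 and 93.9 against 59.5 and 59.5, log2 0.63 ± 0.11 SE, adjusted p = 2.78e-05), as was IARS2 (352 and 333 against 262 and 213, log2 0.53 ± 0.11 SE, adjusted p = 0.000168). GARS was at 497 and 506 in AGS and 398 and 374 in HGC-27 (log2 0.38, adjusted p = 0.00313), VARS at 179 and 163 and at 125 and 124 (log2 0.46, adjusted p = 0.000614), and WARS at 144 and 143 and at 109 and 115 (log2 0.36, adjusted p = 0.00721). The other mitochondrial genes with calls were lower in AGS: HARS2 (24.6 and 27.1 against 35.7 and 37.1), EARS2 (43.0 and 47.7 against 58.0 and 64.9), LARS2 (38.6 and 45.6 against 53.7 and 53.8) and RARS2 (24.0 and 23.8 against 27.5 and 35.5), with log2 differences of -0.35 to -0.49.

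The controls, which did not enter this contrast, lay in the same order as the NINJ1-labelled libraries for 10 of the 14 genes and in the other order for DARS, FARSA, GARS and IARS2. How often they lay in the same order over all genes called in this contrast was not counted. These controls include the HGC-27 library with few counts from GC-rich genes. FARSA, at 66.3 and 65.4 in AGS and 68.3 and 108 in HGC-27, rests on HGC-27 NINJ1 replicate 2, and without that library FARSA and RARS2 no longer passed. Leaving out either AGS NINJ1 replicate (replicate 2 is titled HGC-27) kept fewer of the 14 calls, with only the HGC-27 pair then giving a spread. A fit of all 6 libraries with treatment as an additive term kept only CARS2. With lines as titled edgeR called 0, with 0 at an unadjusted p under 0.05, and 0% of all genes.

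**Figure D5:**
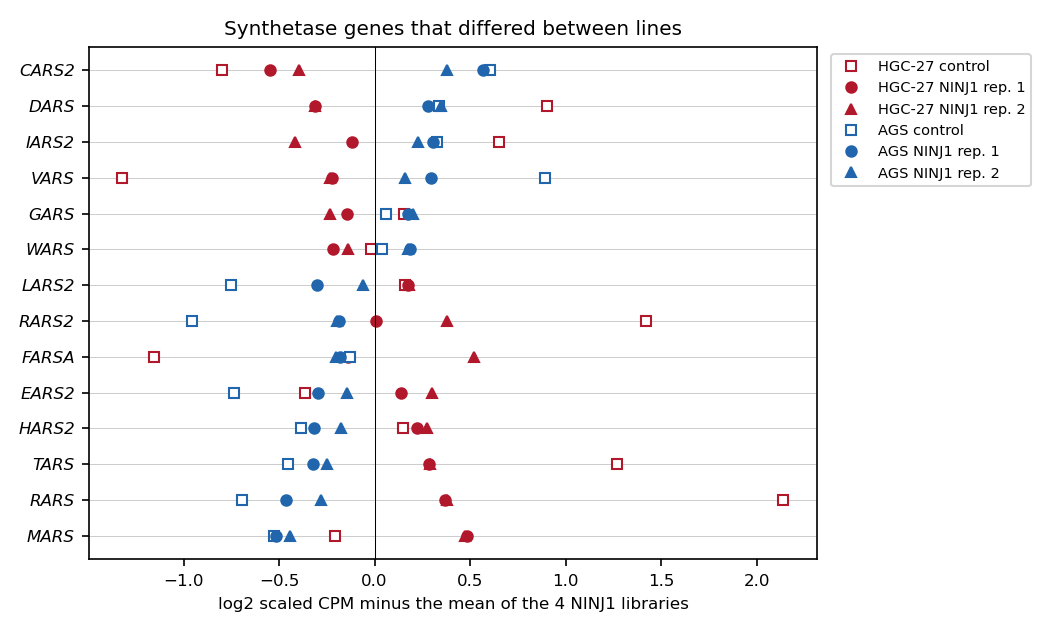
The 14 synthetase genes called between AGS and HGC-27 in the 4 NINJ1-labelled libraries; the horizontal axis is log2 scaled CPM minus the mean of those 4 libraries. Filled symbols are NINJ1-labelled libraries and open squares controls, red HGC-27 and blue AGS; for DARS, FARSA, GARS and IARS2 the open squares lie in the opposite order to the filled symbols.

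Across both lines together, with the line as an additive term, none of the 36 synthetase genes was called by edgeR, against 0% of all tested genes, while 6 had an unadjusted p under 0.05 (AARS2, CARS, WARS2, QARS, EARS2 and MARS2). AARS2 had the smallest p (log2 1.29 ± 0.34 SE, adjusted p = 0.365), and DESeq2 called it and no other synthetase gene (adjusted p = 0.0401), beside 2.12% of all genes it tested. Leaving out either control brought calls among the synthetase genes. Each such fit compares 4 NINJ1-labelled libraries of which only 1 line has a control, and the share of all genes called was not counted.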

How the data were processed

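Per the file headers, the authors deposited 1 table per library, with a count of reads and an FPKM for each Ensembl gene. HTSeq 0.13.5, HISAT2 and the build GRCh38 are named in the submitters' processing notes, and the NEBNext Ultra kit in the labels; the annotation release and strand setting are not given in the sources used here. The deposited FPKM equals the count over a fixed gene length and the library's total. Coordinates, exon overlaps and GC content came from GENCODE release 29, and promoters from RefSeq.

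The deposited counts were tested with edgeR 4.0.16 in R 4.3.3 (filterByExpr, minimum count 10, TMM, quasi-likelihood, two-sided) in 1 model with a mean per line and treatment; with a lone control in each line, only the NINJ1 replicates give a spread, and the controls are taken to vary as they do. The comparison over both lines had the line as an additive term. Adjusted p under 0.05 over all 17617 tested genes was the threshold, and SE is the log2 change over the square root of F. The GC correction is a loess (span 0.3) of log2 CPM deviations on GC content, used as an offset. Alternatives were DESeq2 1.42.0, limma 3.58.1 on log2(FPKM + 1) and log2(FPKM + 0.1) with at least 1 FPKM in 2 libraries, no filter, other size factors, lines as titled, other sets of libraries and a replicate block; the fitting scripts were tested on simulated data. The members and lists were chosen with earlier results of these data known. All 36 genes may be named; full values are given for called genes, ranked by p (up to 14 for AGS, 8 more each for HGC-27 and the lines), and up to 3 genes for each other list. Values by library for further genes (AARS, IARS, SARS, FARSA, MARS2, HARS2, EARS2 and LARS2 among them) were added after they were seen.

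The NINJ1 replicate pairs differed by more than sampling noise (chi-square per degree of freedom 13.8 in HGC-27 and 4.57 in AGS). A count limits precision most for SARS2.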

Additional observations from a re-analysis of the deposited data

Results flagged for a closer look

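For 26 synthetase genes the contrast of NINJ1-labelled libraries with control differed between the lines by the interaction test in edgeR at an adjusted p under 0.05. Values are AGS minus HGC-27 on the log2 scale. The HGC-27 side of each rests on a control library with few counts from GC-rich genes, and the share of that profile in these differences was not tested beyond the GC-corrected values given.

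The positive differences among cytosolic genes were RARS 2.09, EPRS 1.48, KARS 1.21, DARS 1.19, LARS 1.17, TARS 1.15, HARS 1.13, IARS 1.03, FARSB 0.86, NARS 0.53 and GARS 0.47. After the GC correction FARSB (0.17, adjusted p = 0.408) and NARS (0.031, adjusted p = 0.888) no longer passed, and the other 9 did. The positive differences among mitochondrial genes were RARS2 1.99, WARS2 0.91, YARS2 0.90, IARS2 0.85 and LARS2 0.56, of which RARS2, YARS2 and LARS2 passed with the correction.

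The negative differences among cytosolic genes were VARS -1.75, FARSA -1.45, AARS -0.73, MARS -0.63, SARS -0.59 and CARS -0.50. None was negative and called after the correction, and VARS (0.74, adjusted p = 0.000437) and FARSA (0.56, adjusted p = 0.0355) were then positive. The negative differences among mitochondrial genes were VARS2 -2.56, AARS2 -1.12, MARS2 -1.07 and TARS2 -0.69. MARS2 (-1.14, adjusted p = 0.00145) and VARS2 (-0.77, adjusted p = 0.0276) kept their direction and call with the correction, while AARS2 was positive (0.69, adjusted p = 0.0211).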

How the results depend on the processing

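Counts of called synthetase genes are given as higher and lower. In AGS they were 6 and 2, then 4 and 2 with DESeq2, and 0 and 0 with limma at either pseudocount and with lines as titled. Leaving out 1 library moved these counts up or down. The fewest came without AGS NINJ1 replicate 2, where only the HGC-27 pair gives a spread. In HGC-27 they were 13 and 16, then 5 and 21 with the GC correction, 1 and 1 with lines as titled, 9 lower with limma on log2(FPKM + 0.1), and 13 to 14 and 15 to 17 with 1 library left out. For the difference between lines they were 16 and 10, then 10 higher with limma on log2(FPKM + 1), 7 higher with log2(FPKM + 0.1), 2 lower with the GC correction, 0 and 0 with lines as titled, and 13 to 18 and 7 to 12 with 1 library left out. Between the lines they were 6 and 8, then 5 lower with DESeq2 or limma on log2(FPKM + 1), 3 and 4 with log2(FPKM + 0.1), 0 and 0 with lines as titled, 1 and 0 with all 6 libraries and treatment additive, 0 and 0 with the 4 undisputed libraries, and 3 to 11 in each direction with 1 library left out. The additive fit with the GC correction, chosen after seeing the data, gave 1 and 5. Over both lines they were 0 and 0, then 1 higher with DESeq2, and again 0 and 0 with any 1 NINJ1-labelled library left out. Without either control the counts moved, in fits where only 1 line has a control. DESeq2's size factors and no filter on low counts moved no count by over 1.5 times, and limma's FPKM scale moved the median change of all genes in HGC-27 from 0.12 to 0.32.

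The replicate numbers share only a number (correlation of replicate differences between the lines 0.00841). A replicate block gave 7 and 2 in AGS, 13 and 16 in HGC-27, 16 and 10 for the difference, 7 and 9 between the lines and 0 and 0 over both; with the 4 NINJ1 libraries alone it gave 10 and 9 between the lines. Within a line, the 4 undisputed libraries leave no residual degree of freedom, so that alternative gave no value there.

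Some log2 values that passed the threshold with or without the alternative changed sign; values that passed under neither are not listed. With the GC correction in HGC-27 these were FARSA -0.48, MARS -0.072, NARS 0.38, VARS -1.18, YARS -0.49, CARS2 -0.60 and TARS2 -0.22, and GARS was 0.052 with limma at either pseudocount. In the difference between lines they were FARSA 0.56, MARS 0.15, VARS 0.74, YARS 0.74, AARS2 0.69, CARS2 0.51 and TARS2 0.23, and MARS 0.29 with lines as titled. Between the lines as titled they were DARS -0.04, FARSA 0.38, GARS -0.055, EARS2 0.029, IARS2 -0.074 and RARS2 0.21, and FARSA was 0.052 with all 6 and 0.49 with the 4 undisputed libraries, treatment additive. Over both lines, with 1 library left out, VARS ran from -0.66 (without the HGC-27 control) to 1.14 (without the AGS control) and RARS2 from -1.16 (without the AGS control) to 0.77 (without the HGC-27 control). The cause of these changes was not tested. Depth limits SARS2, with 3 to 20 counts, most.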
